A study of Mus musculus with 6 samples.

Results

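The 32 genes described here encode glucose and lactate transporters, enzymes and regulators of glycolysis, the hypoxia-inducible factors (HIFs) with the prolyl hydroxylases that control them, and proteins that HIFs are known to induce. They were chosen by symbol, and all 32 symbols were found among the 23366 genes of the deposited table. RNA was sequenced from SC4 cells, a mouse Schwann cell line from a schwannoma (a nerve sheath tumour) that lacks Nf2, the gene of the tumour suppressor merlin. Both groups therefore lack Nf2, come from 1 line and grew in DMEM with 10% serum. The control cells received a control siRNA, and the other cells pooled siRNAs against YAP, a co-activator of transcription that the Hippo pathway restrains. Each group had 3 libraries, numbered 1 to 3, from RNA taken 48 hours after transfection. Whether the libraries of a group are separate cultures is not said in the labels, so the p-values cover the spread among these libraries, which may be technical.

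Glycolysis splits glucose into pyruvate in an energy-consuming first phase, from hexokinase to triosephosphate isomerase, and an energy-yielding second phase, after which lactate dehydrogenase can turn pyruvate into lactate. When oxygen is plentiful, prolyl hydroxylases mark HIF-1α and HIF-2α for destruction. When oxygen is scarce, the factors persist and bind short DNA elements, with ACGTG or GCGTG at the core, beside genes of glucose uptake, glycolysis, collagen hydroxylation and mitochondrial turnover. Merlin-deficient Schwann cells form the tumours of neurofibromatosis type 2, and proliferating tumour cells commonly use glucose at a high rate.

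The promoters of P4ha1, Pfkp and Egln1 are shown because these genes passed the paired test below, have a single listed start, and hold the HIF core motif. Each is the 250 bases before the transcription start in RefSeq on GRCm38.p6, 5′ to 3′ on the strand of the gene, with ACGTG and GCGTG in capitals (on either strand, so CACGT and CACGC count too).
P4ha1, chr10:59323046-59323295, plus strand: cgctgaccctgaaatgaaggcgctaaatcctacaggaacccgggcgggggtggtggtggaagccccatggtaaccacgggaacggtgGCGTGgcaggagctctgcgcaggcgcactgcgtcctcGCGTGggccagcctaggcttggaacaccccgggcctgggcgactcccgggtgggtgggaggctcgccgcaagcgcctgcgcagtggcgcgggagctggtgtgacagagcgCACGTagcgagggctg
Pfkp, chr13:6648772-6649021, minus strand: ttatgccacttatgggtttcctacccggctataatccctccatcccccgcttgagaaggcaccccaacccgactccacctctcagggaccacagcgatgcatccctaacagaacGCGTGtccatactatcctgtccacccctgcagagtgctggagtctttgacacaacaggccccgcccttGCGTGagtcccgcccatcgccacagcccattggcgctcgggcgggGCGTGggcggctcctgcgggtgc
Egln1, chr8:124949255-124949504, minus strand: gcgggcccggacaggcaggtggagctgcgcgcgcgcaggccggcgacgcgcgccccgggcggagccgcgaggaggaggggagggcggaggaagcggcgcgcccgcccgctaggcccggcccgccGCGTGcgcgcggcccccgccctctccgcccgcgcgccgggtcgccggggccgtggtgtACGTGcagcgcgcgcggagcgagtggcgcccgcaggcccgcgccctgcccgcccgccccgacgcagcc
The P4ha1 and Pfkp windows hold 3 matches each and the Egln1 window holds 2. Over members with a single listed start, 18 of 21 windows (85.7%) held at least 1 match, against 37.9% of 22862 such windows of all genes. Many of these genes were listed because they are known HIF targets, and the windows were not matched for base composition. The E-box CACGTG, which contains ACGTG on both strands, was in 2 member windows and 5.92% of all. GGAATG, the core of the sequence bound by the TEAD partners of YAP, was in 1 member window, that of Eno2, and 12.6% of all. A match describes the letters of the window and is not a measured binding site.

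Values are normalized counts, that is, reads in a gene over the size factor of the library. Reads in genes totalled 18025132 to 60078880 per library. Yap1, the siRNA target, was at 4749.6 to 5732 normalized counts in the controls and 475 to 936 after YAP siRNA. Replicate 1 of both groups stood apart from replicates 2 and 3, and results that rest on it are given with and without it. Of the Schwann cell markers reported here, Sox10, S100b and Gfap had a mean under 10 normalized counts, while Pmp22, Mbp, Ngfr and Egr2 were at 864 or above in every library. Among the tested ones, Pmp22 and Erbb3 rose in the paired fit, by 1.00 and 1.12 on the log2 scale, and Ngfr fell, at −0.80 (limma adjusted p = 0.00121, 0.0261 and 0.00721). The summed level of 8 fibroblast markers, mostly Col1a1 and Col1a2, was 274859 to 572471 in the controls and 221935 to 431484 after YAP siRNA, with replicate 1 lowest in both groups. Of the 6 tested, Col1a1, Col3a1 and Dcn fell in the paired fit, at −0.46, −0.31 and −0.99. Col1a2, at −0.30, did not pass, nor did Pdgfra and Thy1, which lay above 0, at 0.18 and 0.84 (limma adjusted p = 0.0617, 0.169 and 0.17). Fap was at 0 throughout. Summed levels of 7 leukocyte markers, 284 to 343 in the controls and 215 to 262 after YAP siRNA, were low, and of the 4 tested, Csf1r fell, at −1.05 (limma adjusted p = 0.0253). The others, Ptprc, Aif1 and Cd68, at 1.03, 0.21 and −0.03, did not pass (limma adjusted p = 0.343, 0.859 and 0.941). The part of these markers in the results below was not tested. In bulk RNA, fewer cells of one kind and less RNA per cell cannot be told apart.

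**Figure D1:**
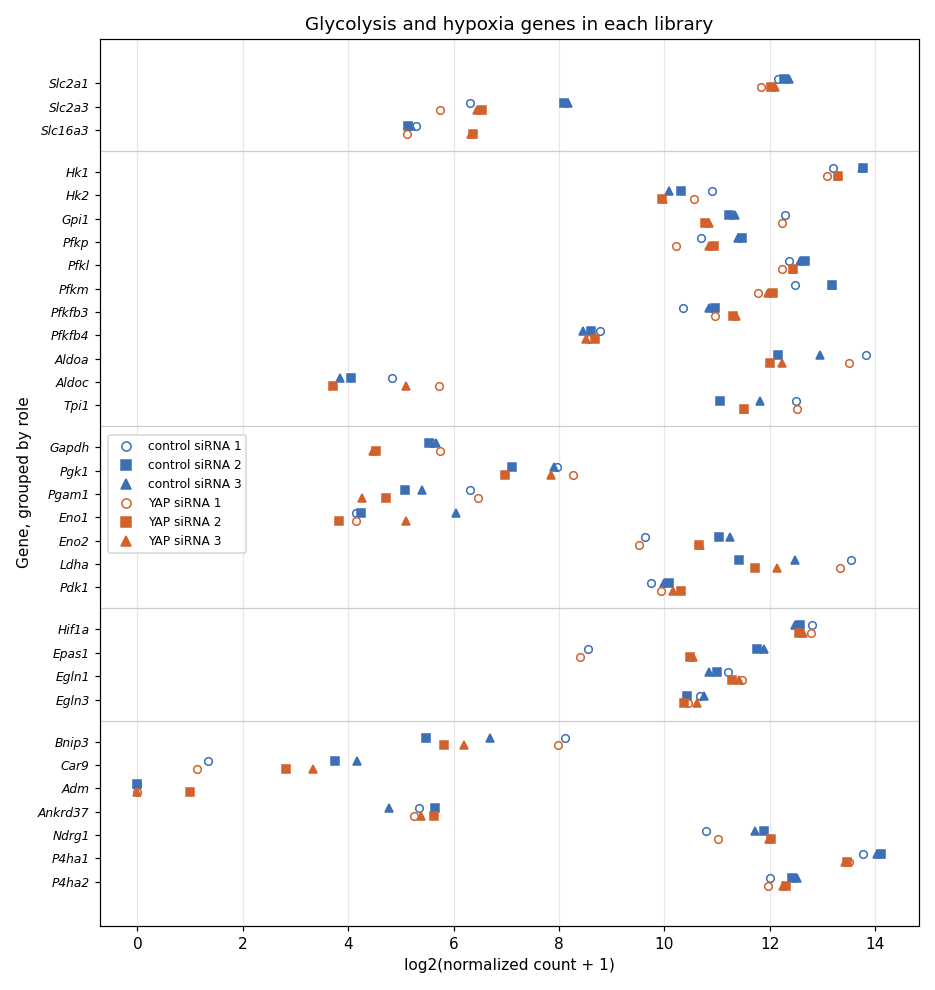
Level of each of the 32 genes in each library, as log2(normalized count + 1) on the horizontal axis, with genes grouped by role. Blue symbols are control siRNA and orange symbols YAP siRNA, and open circles are replicate 1, which for Ldha, Aldoa and Bnip3 lies to the right of the other replicates and for Epas1 and Eno2 to the left.

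Of the 32 genes, 30 had a mean of at least 10 normalized counts and entered a limma test on log2(value + 1) with all 12820 such genes. The others were Car9, a carbonic anhydrase gene strongly induced by hypoxia, and Adm, which encodes the vasodilator peptide adrenomedullin. Car9 was at 1.52, 12.5 and 17.0 normalized counts in the controls and 1.2, 6.06 and 9.04 after YAP siRNA (replicates 1, 2 and 3, the order used throughout). Adm had a single read, in YAP siRNA replicate 2, where 3 reads would be 3.03 normalized counts.

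In the unpaired fit limma called 0 of the 30 at an adjusted p under 0.05 and 0% of all genes, and edgeR called 0. The siRNA target Yap1 did not pass this limma fit either, at −2.995 on the log2 scale (unpaired limma, adjusted p = 0.118). DESeq2 called P4ha1 and Pfkm lower and no member higher, against 3.1% of all genes lower and 2.54% higher (5.63% in all). At an unadjusted p under 0.05 limma had 3 of the 30, against 12.2% of all genes. Libraries with the same number deviated together from their group means. So did replicates 2 and 3 across the groups, so the pairing of these numbers is not settled by the data. The paired fit, with replicate number as blocking factor, called 2 of the 30 higher and 7 lower, against 8.32% and 8.96% of all genes (17.3% in all). The count of higher members is thus close to the background. Below, "rose" and "fell" refer to the paired fit. The median log2 fold change was −0.15 over the 30 genes and 0.0094 over all genes tested.

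The groups did not overlap for Slc2a1, Pfkm and P4ha1, which were lower after YAP siRNA (background 9.49%), and for Pfkfb3 and Egln1, which were higher (background 9.47%, and 19.0% in either direction). These counts are close to the background. For each of these 5 genes an exact permutation test, two-sided, gives p = 0.1, the smallest that 3 against 3 libraries allow. That p follows from the lack of overlap by which these genes were picked, and adds nothing to it. The differences at replicate numbers 1, 2 and 3 had 1 sign in 18 of the 30 genes, with 14 lower (background 27.1%) and 4 higher (background 27.4%).

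The paired calls rest on the libraries and on the model. In paired limma without a mean-variance trend 0 of the 30 passed, against 0.0936% of all genes higher and 0.14% lower (0.234% in all). Without replicate 2 of both groups Pfkm alone passed, as lower, against 1.5% of all genes lower and 1.06% higher (2.56% in all). Without replicate 3, Pfkm, Pfkp, Epas1 and P4ha1 passed as lower and Pfkfb3 as higher, where 4.51% of all genes were lower and 4.01% higher (8.52% in all). Without replicate 1 all 9 called genes passed again, and Slc2a1, Gpi1, Eno2, Gapdh and Slc16a3 passed too, but so did 43.8% of all genes (22.0% higher, 21.8% lower). The lowest adjusted p-values given below come from that fit, whose spread is taken largely from other genes because 2 pairs leave 1 residual degree of freedom. In the unpaired fit without both replicates 1, a choice made after seeing the data, 3 members were higher (Pfkfb3, Egln1 and Slc16a3) and 8 lower (Slc2a3, Hk1, Gpi1, Pfkm, Pfkp, Eno2, Epas1 and P4ha1), against 15.3% and 16.7% of all genes. With only control replicate 1 left out of the unpaired fit, Slc2a3, Pfkm and P4ha1 were called lower and 0 members higher, against 2.37% and 1.49% of all genes (3.86% in all).

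**Figure D2:**
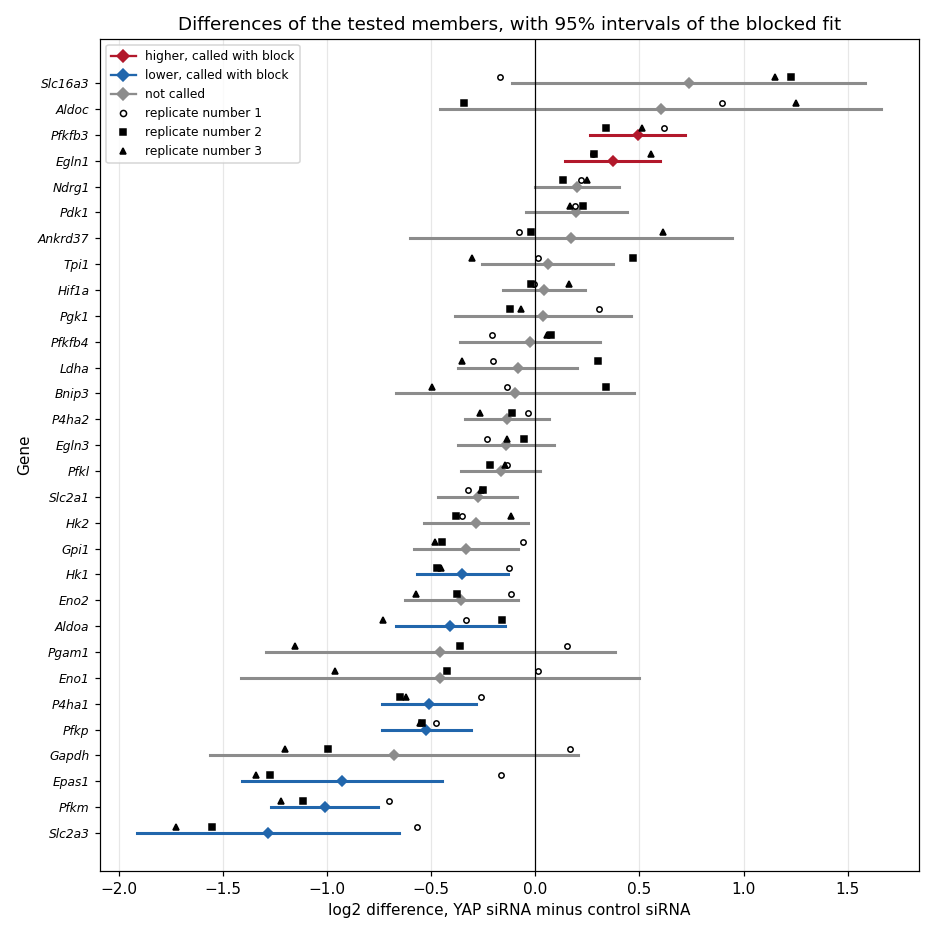
Log2 difference between YAP siRNA and control siRNA for the 30 tested genes, sorted by size. Diamonds and bars are the fitted value and its 95% interval in limma with the replicate block, coloured where the gene was called, and small black symbols are the differences at replicate numbers 1, 2 and 3. For Slc2a3 and Epas1 the difference at replicate number 1 lies nearer to 0 than the other two.

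Of the 3 membrane transporter genes, 1 fell (background 8.96%). Slc2a3, which encodes the high-affinity glucose transporter GLUT3, was at 78.9, 271 and 287 normalized counts in the controls and 52.9, 91.8 and 85.9 after YAP siRNA. Control replicate 1 lies among the YAP siRNA values, so the groups overlap, but at each replicate number the YAP siRNA value was the lower one. Slc2a3 fell from 212 ± 116 to 76.9 ± 21.0 (SD, n = 3; −1.28 on the log2 scale, SE 0.275; paired limma, adjusted p = 0.0173, and unpaired, 0.431). Over the alternatives to the paired fit the adjusted limma, edgeR or DESeq2 p ranged from 1.0e-11 to 0.155, the highest without replicate 2, and it was 0.0656 without replicate 3. Without replicate 1 the difference was −1.64 on the log2 scale. Slc2a1, which encodes the basal glucose transporter GLUT1, was at 4577, 4980.3 and 5279 normalized counts in the controls and 3660.4, 4190.1 and 4409.5 after YAP siRNA. All its YAP siRNA values lay under all control values, with a mean at 82.6% of that of the controls, and it did not pass (paired limma, adjusted p = 0.0547). Per kilobase of the longest coding transcript, the mean control level was 1517 ± 108 for Slc2a1 and 53.6 ± 29.2 for Slc2a3 (SD, n = 3). Slc16a3, which encodes the lactate exporter MCT4, was at 37.9, 34.3 and 35.5 normalized counts in the controls and 33.7, 81.7 and 79.9 after YAP siRNA. YAP siRNA replicates 2 and 3 stood above all controls and YAP siRNA replicate 1 just under them. The gene did not pass (paired limma, adjusted p = 0.199), but without replicate 1 it passed as higher, at 1.19 on the log2 scale (paired limma, adjusted p = 0.00366).

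In the first phase of glycolysis 1 of 11 genes rose (background 8.32%) and 4 fell (background 8.96%). The median log2 fold change was −0.28, against 0.0094 over all genes tested. Phosphofructokinase, which commits sugar to glycolysis, is built from the subunits of 3 genes. Pfkm, the subunit gene that predominates in muscle, was at 5742, 9258 and 9277 normalized counts in the controls and 3534, 4273 and 3986 after YAP siRNA. Every YAP siRNA library lay below every control library, and the YAP siRNA mean was 48.6% of the control mean. Pfkm fell from 8092 ± 2035 to 3931 ± 372 (SD, n = 3; −1.01 on the log2 scale, SE 0.112; paired limma, adjusted p = 0.00186, and unpaired, 0.189), with differences of −0.70, −1.12 and −1.22 at replicate numbers 1, 2 and 3. Over the alternatives to the paired fit its adjusted limma, edgeR or DESeq2 p ranged from 7.0e-40 to 0.079, and it was over 0.05 only without a mean-variance trend. Pfkp, the platelet-type subunit gene, was at 1652, 2857 and 2715 normalized counts in the controls and 1189, 1958 and 1851 after YAP siRNA. Replicate 1 was the lowest of each group and the groups overlapped, but the differences at the 3 numbers were close together, at −0.47, −0.54 and −0.55. Pfkp fell (−0.52 on the log2 scale, SE 0.0937; paired limma, adjusted p = 0.00918, and unpaired, 0.54). Its adjusted p over the alternatives to the paired limma, edgeR and DESeq2 fits ranged from 3.7e-07 to 0.122, the highest without replicate 2. Pfkl, the liver-type subunit gene, was lower at each number, with differences of −0.14, −0.22 and −0.14. It did not pass, at −0.17 on the log2 scale (95% interval −0.36 to 0.02, paired limma, adjusted p = 0.192).

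The balance of the 3 subunit genes was also measured within each library, where a scaling of the whole library cancels. Per kilobase of transcript, Pfkm made up 52.2%, 57.0% and 58.4% of the summed level in the controls and 43.7%, 43.0% and 41.7% after YAP siRNA. The mean share was 55.9% ± 3.23 against 42.8% ± 0.981 (SD, n = 3), and the groups did not overlap (exact permutation test, two-sided, p = 0.1, the smallest possible). The share is built from the same counts, in which Pfkm already separated the groups, so this p adds no support. No background for such shares was measured. Pfkl took 32.6% ± 4.11 and 44.7% ± 1.41, and Pfkp 11.5% ± 0.939 and 12.5% ± 1.95. The order of mean control levels per kilobase was Pfkm (2811 ± 707), Pfkl (1602 ± 161) and Pfkp (581 ± 159). After YAP siRNA, Pfkl (1426 ± 112) and Pfkm (1365 ± 129) differed by less than their SD. The share of one subunit gene depends on the other two, so a lower share of Pfkm and a higher share of Pfkl are 1 measurement.

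Among the regulators and remaining enzymes of the first phase, Pfkfb3 rose and Hk1 and Aldoa fell. Pfkfb3, whose product makes the phosphofructokinase activator fructose-2,6-bisphosphate, was at 1305, 1987 and 1853 normalized counts in the controls and 2006, 2516 and 2645 after YAP siRNA. The groups did not overlap, with control replicate 2 just under YAP siRNA replicate 1. Pfkfb3 rose from 1715 ± 361 to 2389 ± 338 (SD, n = 3; 0.49 on the log2 scale, SE 0.101; paired limma, adjusted p = 0.0149, and unpaired, 0.422). Over the alternatives to the paired fit its adjusted limma, edgeR or DESeq2 p ranged from 1.2e-04 to 0.104, and without replicate 2 it was 0.092. The related gene Pfkfb4 differed by −0.02 (95% interval −0.36 to 0.31), a sign that turned when libraries were scaled to one total.

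Hk1, the constitutive hexokinase gene, was at 9451, 13949 and 13726 normalized counts in the controls and 8661, 10062 and 10038 after YAP siRNA. Control replicate 1 lay below YAP siRNA replicates 2 and 3, and the difference at replicate number 1 was −0.13, against −0.47 and −0.45 at the other two. Hk1 fell (−0.35 on the log2 scale, SE 0.0961; paired limma, adjusted p = 0.0402, and unpaired, 0.525). The call was lost in paired limma without replicate 2 (adjusted p = 0.346), without replicate 3 (0.188), and with libraries scaled to one total (0.0519) or to equal quantiles (0.0526), and the lowest adjusted p over the alternatives was 7.5e-08. Hk2, the inducible hexokinase gene and a HIF target, had differences of −0.35, −0.38 and −0.12 and did not pass (paired limma, adjusted p = 0.107). Per kilobase, Hk1 made up 91.3% ± 4.3 of the summed level of both hexokinase genes in control cells and 91.3% ± 2.74 in YAP siRNA cells (SD, n = 3).

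Aldoa, the main aldolase gene, was at 14625, 4599 and 7958 normalized counts in the controls and 11616, 4115 and 4792 after YAP siRNA. Its replicates differed by more than the groups did, with replicate 1 highest in each. The differences at the 3 numbers were −0.33, −0.16 and −0.73, and Aldoa fell (−0.41 on the log2 scale, SE 0.115; paired limma, adjusted p = 0.0432, and unpaired, 0.861). Its paired limma adjusted p was 0.0953 without replicate 2, 0.289 without replicate 3 and 0.0534 with libraries scaled to one total, and over all alternatives to the paired fit it ranged from 2.6e-06 to 0.289. Aldoc, the brain-type aldolase gene, ranged from 12.1 to 51.7 normalized counts, with a 95% interval of the log2 difference of −0.46 to 1.66. The isomerase gene Gpi1 was lower by 0.06, 0.45 and 0.48 on the log2 scale and did not pass (paired limma, adjusted p = 0.0717). Tpi1, the triosephosphate isomerase gene, had differences of 0.01, 0.47 and −0.30, which share no sign.

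**Figure D3:**
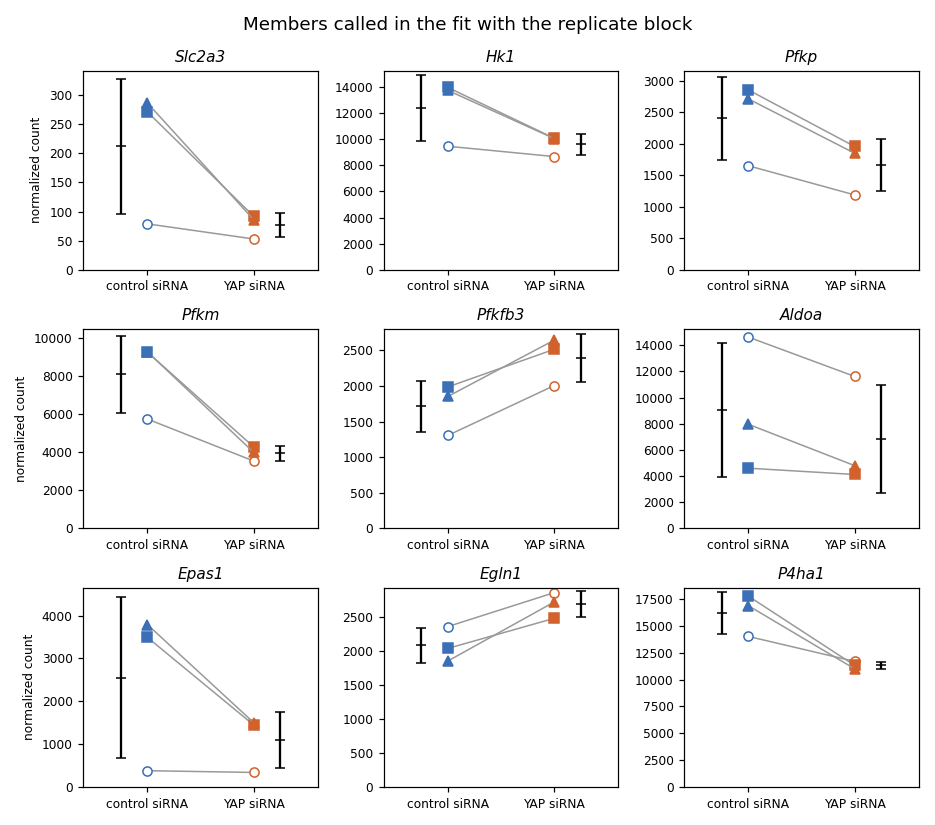
Normalized counts of the 9 genes called with the replicate block, with control siRNA at the left and YAP siRNA at the right of each panel and lines joining libraries with the same replicate number (open circles are replicate 1). Black marks are the mean and SD of each group (n = 3), and each vertical axis starts at 0. In 9 of 9 panels all 3 lines run in one direction, and Epas1 is nearly flat at replicate number 1. The fit with the block favours genes whose differences at the 3 numbers agree. Of all genes tested, 27.1% were lower and 27.4% higher at each number.

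In the second phase, grouped here with the pyruvate genes Ldha and Pdk1, limma called 0 of 7 genes, paired (background 17.3%) or unpaired (background 0%), with all libraries. Gapdh, the glyceraldehyde-phosphate dehydrogenase gene often used as a reference, was at only 47.0, 45.2 and 49.8 normalized counts in the controls and 52.9, 22.2 and 21.1 after YAP siRNA. YAP siRNA replicate 1 lay above the controls and YAP siRNA replicates 2 and 3 below them. The differences were 0.17, −0.99 and −1.20 (paired limma, adjusted p = 0.253). Without replicate 1 Gapdh passed as lower, at −1.10 (paired limma, adjusted p = 0.04), on as few as 14 reads. Eno2, the neuronal enolase gene, was lower at each number, by 0.11, 0.37 and 0.57. It did not pass (paired limma, adjusted p = 0.0728), but did without replicate 1 (3.1e-05).

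Ldha, a lactate dehydrogenase subunit gene induced by HIF-1, was at 11923, 2747 and 5724 normalized counts in the controls and 10363, 3381 and 4489 after YAP siRNA. Replicate 1 was highest in both groups, and the means of 6798 ± 4681 and 6078 ± 3753 (SD, n = 3) lay well within that spread. Its differences were −0.20, 0.30 and −0.35. The mean control levels of Pgk1, Pgam1 and the main enolase gene Eno1 were 209, 51.0 and 33.3 normalized counts. In each of these the difference at replicate number 1 was above 0 and the others below 0. They were 0.31, −0.12 and −0.07 for Pgk1, which makes ATP in this phase. They were 0.15, −0.36 and −1.15 for the mutase gene Pgam1 and 0.01, −0.42 and −0.96 for Eno1. Pdk1, which encodes a kinase that keeps pyruvate out of the mitochondrial cycle, was higher at each number, by 0.19, 0.23 and 0.17, and did not pass (95% interval −0.05 to 0.44).

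Several of these genes have pseudogene copies, so their values are uncertain. In GENCODE M21, 84.1% of the 31-base words of the longest coding Gapdh transcript also occur in annotated pseudogenes, 282 of them. The share was 68.3% for Pgk1, 57.2% for Eno1, 42.1% for Pgam1, 34.2% for Ldha, 30.1% for Gpi1, 26.6% for Aldoa, 26.5% for Bnip3 and 17.4% for Tpi1. It was under 10% for the other 21 tested genes. Words shared, on either strand, with other annotated genes that are not pseudogenes were counted too, and the 21 are not free of them. They made up 17.4% of the words of Pfkp, 17.5% of Ankrd37 and 16.5% of Ndrg1. Among the 9 genes named above, they made up 77.9% for Gapdh, 75.6% for Eno1, 72.1% for Bnip3, 18.7% for Aldoa and 13.1% for Gpi1. Per kilobase the mean control level was 33.3 ± 1.61 for Gapdh, 16.5 ± 13.7 for Eno1 and 28.8 ± 13.8 for Pgam1, against 5849 ± 3294 for Aldoa, 3745 ± 2579 for Ldha and 2392 ± 1145 for Tpi1 (SD, n = 3). How reads that match several places were counted is not known here, and its part in these levels was not tested.

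Of the 4 genes of HIF factors and their hydroxylases, 1 rose (background 8.32%) and 1 fell (background 8.96%). Epas1, which encodes HIF-2α, was at 376, 3491 and 3791 normalized counts in the controls and 335, 1443 and 1498 after YAP siRNA. Replicate 1 of both groups was far below the others. At replicate numbers 2 and 3 the YAP siRNA value was lower by 1.27 and 1.34 on the log2 scale, and at number 1 by 0.17. Epas1 fell (−0.93 on the log2 scale, SE 0.211; paired limma, adjusted p = 0.0214, and unpaired, 0.812), with an adjusted p in paired limma of 0.154 without replicate 2. Without both replicates 1 the difference was −1.31, and the adjusted p was 2.5e-05 in unpaired limma. Over the alternatives to the paired fit the adjusted limma, edgeR or DESeq2 p ranged from 1.4e-36 to 0.154.

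Hif1a, which encodes HIF-1α, a protein regulated mostly by its stability, was at 7134, 6146 and 5684 normalized counts in the controls and 7092, 6054 and 6354 after YAP siRNA. The groups overlapped, and the difference of 0.04 on the log2 scale had a 95% interval of −0.15 to 0.24. Egln1, which encodes PHD2, the main HIF prolyl hydroxylase and itself HIF-induced, was at 2361, 2039 and 1853 normalized counts in the controls and 2861, 2483 and 2723 after YAP siRNA. The groups did not overlap, and Egln1 rose from 2085 ± 257 to 2689 ± 192 (SD, n = 3; 0.37 on the log2 scale, SE 0.1; paired limma, adjusted p = 0.0378, and unpaired, 0.371). The call was lost in paired limma without replicate 2 (adjusted p = 0.206) and without replicate 3 (0.262), within a range of 1.6e-04 to 0.262 over the alternatives. Egln3, which encodes PHD3, was lower by 0.23, 0.05 and 0.13 and did not pass (paired limma, adjusted p = 0.367).

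Among the hypoxia-induced genes 1 of 5 tested fell (background 8.96%). P4ha1, whose promoter is shown above, encodes a catalytic subunit of the oxygen-dependent prolyl hydroxylase that stabilises collagen. It was at 14045, 17812 and 16917 normalized counts in the controls and 11709, 11340.0 and 11018 after YAP siRNA. The YAP siRNA values lay close together, all below the lowest control. P4ha1 fell from 16258 ± 1968 to 11355 ± 346 (SD, n = 3; −0.51 on the log2 scale, SE 0.0995; paired limma, adjusted p = 0.0123, and unpaired, 0.232). Over the alternatives to the paired fit its adjusted limma, edgeR or DESeq2 p ranged from 1.8e-14 to 0.151, the highest without replicate 2. Its substrate gene Col1a1 had a log2 fold change of −0.46 (paired limma, adjusted p = 0.026). The collagen gene Col3a1 was at −0.31, while Col1a2, at −0.30, did not pass (paired limma, adjusted p = 0.0366 and 0.0617). P4ha2, the related subunit gene, had differences of −0.04, −0.11 and −0.27 and a 95% interval of −0.34 to 0.07.

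Bnip3, a mitophagy receptor gene and classical HIF-1 target, was at 276, 43.7 and 102 normalized counts in the controls and 251, 55.5 and 72.3 after YAP siRNA. As for Ldha, replicate 1 was highest in both groups and the differences, −0.14, 0.34 and −0.49, had no common sign. Ndrg1, a hypoxia-induced gene that in humans underlies a hereditary demyelinating neuropathy, was higher by 0.22, 0.13 and 0.25 and did not pass (paired limma, adjusted p = 0.147). Ankrd37, a small ankyrin repeat gene induced by HIF-1, ranged from 26.3 to 49.1 normalized counts, with a 95% interval of −0.60 to 0.94 for its log2 difference.

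For 7 of the 30 genes replicate 1 differed more than 2-fold from the mean of replicates 2 and 3 in both groups. It was higher in Bnip3, Ldha, Aldoa, Gpi1 and Pgam1 (background 6.66%) and lower in Epas1 and Eno2 (background 7.07%). On the log2 scale the deviation of replicate 1 in control and YAP siRNA cells was 2.03 and 1.97 for Bnip3, 1.59 and 1.41 for Ldha, and 1.27 and 1.39 for Aldoa. It was −3.27 and −2.13 for Epas1 and −1.51 and −1.15 for Eno2. Tpi1, at 1.06 and 0.99, and Ndrg1, at −1.02 and −0.99, just missed this limit in YAP siRNA cells, while Hif1a, at 0.27 and 0.19, deviated little. All 5 genes that were high in replicate 1 are among the 9 that share at least 10% of their words with pseudogenes. Across the 30 genes the deviation of replicate 1 had a Spearman correlation of 0.45 with that share and of −0.52 with transcript length, against −0.0977 with transcript length across 11625 tested genes with a transcript. For the pseudogene share no background over all genes was measured. The points of these correlations come from the same 6 libraries, which they only describe. What was different about replicate 1 is not given by the labels and was not tested.

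**Figure D4:**
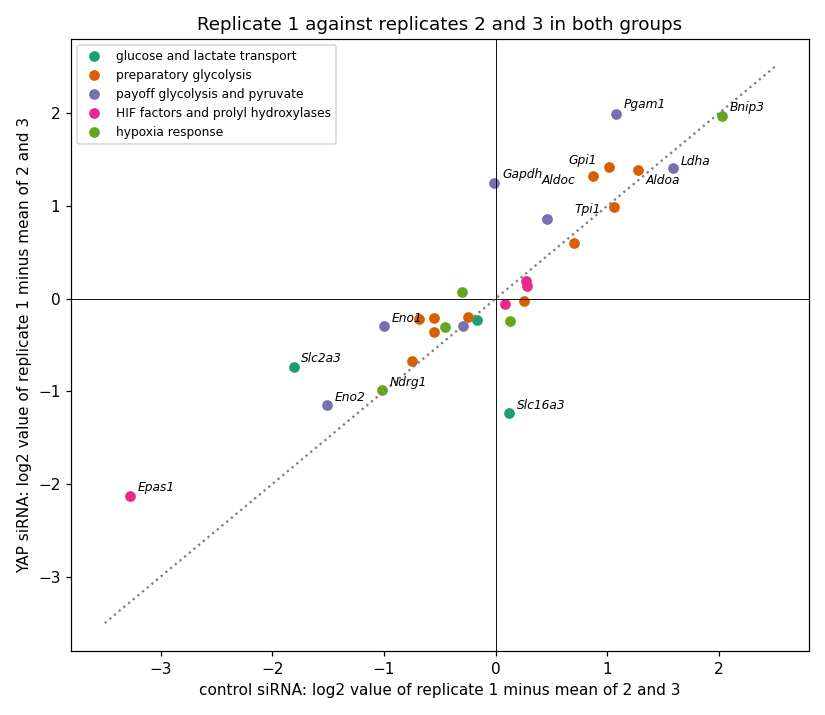
Log2 value of replicate 1 minus the mean of replicates 2 and 3 in control siRNA (horizontal axis) and YAP siRNA libraries (vertical axis), with 1 point for each of the 30 tested genes coloured by role and a dotted line of equal values. Bnip3, Ldha, Aldoa, Gpi1 and Pgam1 lie at the upper right and Epas1 and Eno2 at the lower left.

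Other genes of these pathways were followed in 4 lists with 85 tested genes. Of these, 9 rose and 10 fell (22.4% called), close to the background of the paired fit (17.3%). Their median log2 fold change was 0.0087. Among other glycolytic isoenzymes and transporters, 1 rose and 3 fell of 18 tested (22.2% called). Bpgm, which diverts a glycolytic intermediate to 2,3-bisphosphoglycerate, fell from 3664 ± 187 to 2479 ± 385 (SD, n = 3; −0.57 on the log2 scale; paired limma, adjusted p = 0.00777). The muscle-type mutase gene Pgam2 fell from 30.5 ± 14.9 to 7.88 ± 8.32 (SD, n = 3; paired limma, adjusted p = 0.0341, and unpaired, 0.457). Its level was low, at 0, 7.06 and 16.6 normalized counts after YAP siRNA, and control replicate 1 (13.7) lay below the last of these. The transporter gene Slc2a6 rose from 724 ± 268 to 1026 ± 375 (SD, n = 3). Of 17 other HIF regulators and related factors, 2 rose and 0 fell (11.8% called). Arnt2, which encodes a dimerisation partner of HIF-α proteins, rose from 618 ± 25.7 to 1270.4 ± 129 (SD, n = 3; 1.03 on the log2 scale; paired limma, adjusted p = 0.00181, and unpaired, 0.123). The other was its relative Arntl, better known as the clock factor BMAL1, at 0.65 on the log2 scale.

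Of 39 other hypoxia response genes, 5 rose and 6 fell (28.2% called, against 17.3% of all genes). Stc2, which encodes the secreted glycoprotein stanniocalcin 2, fell from 1463 ± 191 to 698 ± 103 (SD, n = 3; −1.07 on the log2 scale; paired limma, adjusted p = 0.0046). Ak3, a mitochondrial adenylate kinase gene, rose from 1807 ± 553 to 3898 ± 185 (SD, n = 3; 1.15; paired limma, adjusted p = 0.00221). Ak4, another adenylate kinase gene of this list, differed by only −0.03 (paired limma, adjusted p = 0.895). The angiogenic factor gene Vegfa, a HIF target, fell to 45.7% of its control mean. In the pentose phosphate and gluconeogenesis list 1 rose and 1 fell of 11 tested (18.2% called). Taldo1, which encodes transaldolase, fell by 0.56 on the log2 scale, and Rpe, which encodes ribulose-phosphate epimerase, rose by 0.42 (paired limma, adjusted p = 0.00594 and 0.0363).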

How the data were processed

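Poly(A) RNA was measured in 3 control siRNA and 3 YAP siRNA libraries made with directional adapters. The submitters' processing notes name mm9 as the mouse build and list TopHat2 (2.0.9), HTSeq (0.6.1) and DESeq (1.14.0), without roles. The annotation, strand setting and handling of multiply matching reads were not stated in the sources used here. The deposited signal values are gene counts that the authors divided by a size factor. In each library 100% of the values were whole multiples, within 0.01 reads, of the value of 1 read, so reads were recovered for the count models. For YAP siRNA replicate 2, whose step lies near 1, an automated check did not accept the recovery, so these models stand only as alternatives. Within groups, any 2 libraries differed beyond sampling noise (chi-square per degree of freedom 6.98 to 232).

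Genes with a mean of at least 10 were tested on the log2(value + 1) scale, which understates changes of low genes, using limma (3.58.1, R 4.3.3; two-sided, mean-variance trend, p-values adjusted by Benjamini-Hochberg over all genes tested). The main design is unpaired, and the paired fit adds the replicate number as a block. Same-numbered libraries deviated together (r = 0.788, 0.705 and 0.532 for numbers 1, 2 and 3, all over 0.1). This pairing comes from the data and not from a label. Control replicate 2 also correlated with YAP siRNA replicate 3 (r = 0.552), and control replicate 3 with YAP siRNA replicate 2 (r = 0.516). Deviations within a group cancel out, so a replicate 1 that stands apart in both groups gives such correlations by itself. The check therefore cannot show that 2 pairs with 2 and 3 with 3. Alternatives were pseudocounts of 0.5 and 10, no filter, a mean of at least 50, one total per library, quantile normalization, no trend, edgeR (4.0.16) and DESeq2 (1.42.0), and libraries left out.

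Every member is named. Values in each library are given for called members and the largest change in each role, and for a few others chosen after their values were seen. The further lists name up to 3 called genes by smallest p, and Ak4 is given beside Ak3. The members and lists were chosen with earlier results of these data known. Transcript lengths and 31-base words come from GENCODE M21 and promoters from RefSeq GRCm38.p6, another build than mm9, matched by symbol. Some Schwann cell markers are not reported here.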

Additional observations from a re-analysis of the deposited data

How the results depend on the processing

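The unpaired fit called 0 genes higher, 0 lower and 0 members. With the replicate block limma called 1067 genes higher and 1149 lower, 2 members higher and 7 lower, and 19 other pathway genes, and Yap1 passed at −2.995 on the log2 scale. Unpaired DESeq2 called 325 genes higher and 397 lower, 2 members lower, and 8 other pathway genes, with Yap1 at −2.94. With both replicates 1 left out, unpaired limma called 1967 genes higher and 2150 lower, 3 members higher and 8 lower, and 32 other pathway genes, with Yap1 at −3.32, Pfkfb4 turned to 0.0671 and Pgk1 to −0.10. Scaling to one total turned Pfkfb4 to 0.0032 in both fits. In the paired fit without a mean-variance trend 12 genes were called higher and 18 lower, and 0 members and 0 other pathway genes, with Yap1 no longer past the threshold at −2.995. The cause of these changes was not tested.

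With 1 library left out at a time, the unpaired fit called 0 to 192 genes higher, 0 to 304 lower, 0 to 3 members lower and 0 to 7 other pathway genes. The median log2 fold change of members ranged from −0.26 to −0.0726 and that of Yap1 from −3.28 to −2.79. Differences that changed sign among these fits ranged from −0.87 to 0.0164 for Aldoa, −0.80 to 0.0063 for Gpi1, −0.86 to 0.0292 for Eno2, −0.83 to 0.16 for Eno1, −0.61 to 0.44 for Ldha, −0.75 to 0.58 for Bnip3, −0.14 to 0.53 for Ndrg1, −0.10 to 0.0586 for Pfkfb4, −0.25 to 0.40 for Pgk1, −0.31 to 0.41 for Tpi1, −0.0298 to 0.13 for Hif1a and −0.0702 to 0.37 for Ankrd37. With 1 replicate number left out of the paired fit, 136 to 2823 genes were called higher and 192 to 2808 lower, 1 to 14 members in all, 0 to 3 higher and 1 to 11 lower, and 4 to 44 other pathway genes. There the differences ranged from −0.28 to 0.0486 for Ldha, −0.32 to 0.10 for Bnip3, −0.0742 to 0.0671 for Pfkfb4, −0.10 to 0.12 for Pgk1, −0.14 to 0.24 for Tpi1, −0.0150 to 0.0761 for Hif1a and −0.0498 to 0.30 for Ankrd37. These paired fits leave 1 residual degree of freedom per gene, so their spread is taken largely from other genes and their p-values reach very small values. Fewer than 30 reads in at least 1 library lie behind Adm, Car9, Eno1, Aldoc, Pgam1, Gapdh, Slc16a3 and Ankrd37, which limits the precision of their values.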
